A study of Mus musculus with 8 samples.

Results

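Lung macrophages sorted from Pparg knockouts and controls did not differ by the same amounts at day 2 and at day 11 after birth. The genes whose genotype difference changed between these ages are the subject here. For each gene the interaction was taken as the knockout minus control difference at day 11 less the same difference at day 2. A value above 0 means that the knockout stood higher, relative to its control, at day 11 than at day 2, and a value below 0 the reverse. Genes were represented by probe sets with a single gene symbol, 1 per gene, the one of the highest mean over the 8 arrays. Of 18782 genes tested on all 8 arrays, 615 (3.27%) were called for the interaction at an adjusted p under 0.05, 242 (1.29%) above 0 and 373 (1.99%) below 0. With an interaction of at least 2-fold added to the call, 232 (1.24%) were left, 53 above 0 (0.282%) and 179 below (0.953%).

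The cells were sorted from mouse lung on a C57BL/6 background, with 2 arrays in each of 4 groups, and every array measured RNA of cells pooled from 2 mice. Both genotypes carried the loxP-flanked Pparg alleles (PPARg fl/fl). The knockouts carried CD11c-Cre as well, in which the promoter of the CD11c gene drives the recombinase, so the deletion is aimed at cells that express CD11c and is not limited to macrophages. At day 2 the cells, labelled preAM, were viable CD45+ F4/80+ CD11c high cells that were either Siglec-F intermediate CD11b intermediate or Siglec-F low CD11b high, and the labels do not say which gate served which genotype. At day 11 the cells, labelled AM, were CD45+, CD11c high, high in autofluorescence and Siglec-F+, with CD11b low cells taken from controls and CD11b high cells from knockouts. Deletion and gate therefore cannot be told apart at day 11. The same holds at day 2 if the 2 gates there served different genotypes, which the labels leave unstated. Age and gate cannot be told apart in either genotype, and the interaction holds all of these.

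PPARγ belongs to the nuclear receptors, is activated by fatty acids and their oxidised forms, and with its partner RXR switches on genes for taking up, storing and burning lipid. Alveolar macrophages remove used surfactant from the air spaces and arise from fetal monocytes. The cytokine GM-CSF induces PPARγ in these cells during their first days, so the interval between the 2 sampled ages spans the formation of the mature cell.

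Fewer genes were called between the ages in controls than in knockouts. Between day 2 and day 11, 996 genes (5.3%) were called in controls, 2.81% of all genes higher at day 11 and 2.49% lower. In knockouts 2915 (15.5%) were called, 8.81% higher at day 11 and 6.71% lower. The genotypes differed in 3774 genes (20.1%) at day 2, 8.86% higher in knockouts and 11.2% lower, and in 3500 (18.6%) at day 11, 9.34% higher and 9.29% lower. The difference between the 2 age counts was not tested as such, and the interaction below is the test of it gene by gene. Of 2056 genes called at both ages in 1 direction, 181 were called for the interaction and 1875 were not. For 1735 of those 1875 the 95% interval of the interaction lay within 1 log2 unit of 0 on either side. A further 45 genes were called at both ages in opposite directions, 33 of them higher in knockouts at day 2 and lower at day 11, and 12 the reverse. The largest pattern among interaction calls was a gene higher in knockouts at day 2 without a call at day 11 (177 genes), followed by a gene higher at day 11 without a call at day 2 (106 genes). Among the genes higher in knockouts at both ages, the difference grew in 58 and shrank in 75.

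**Figure D1:**
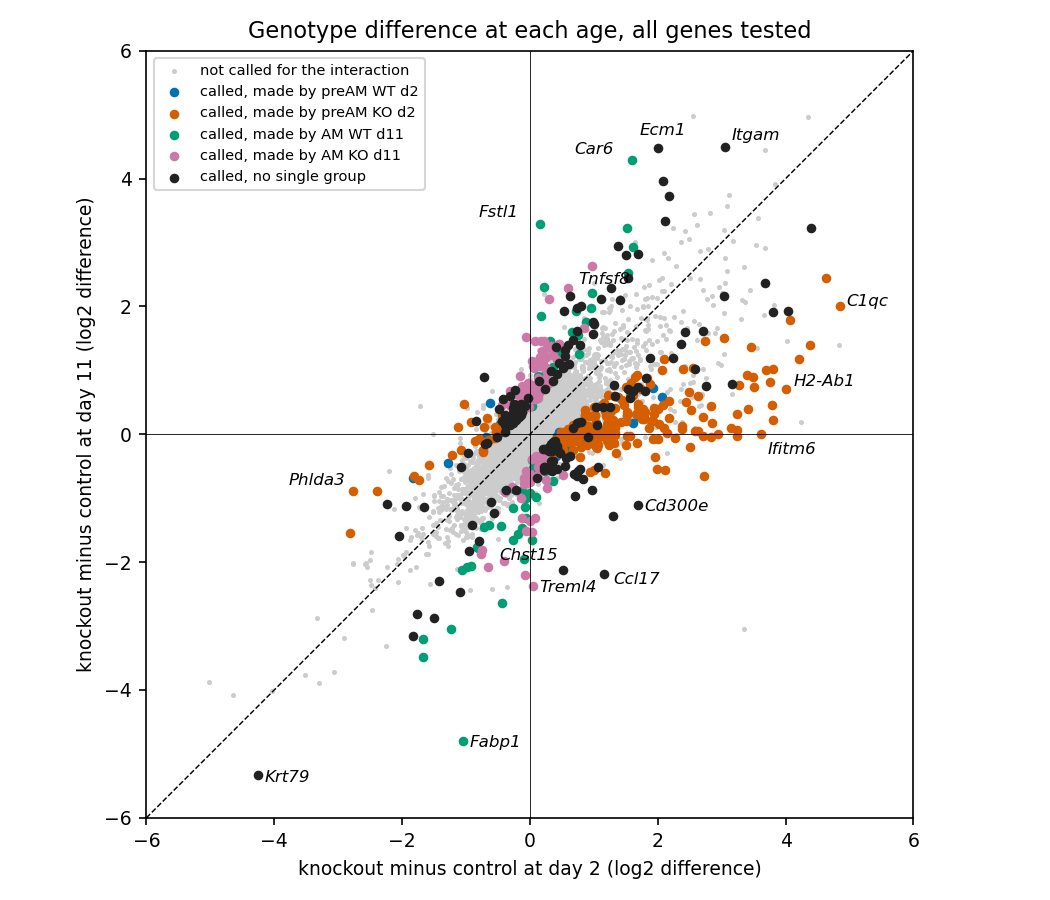
Log2 difference of knockout and control at day 2 (horizontal axis) and day 11 (vertical axis), 1 point per gene for 18782 genes, with the 615 genes called for the interaction coloured by the group mean that makes the term and a dashed line where both differences are equal. The orange points, made by day 2 knockouts, lie mostly to the right at a day 11 difference near 0, while Fabp1 lies far below the line and Fstl1, Car6 and Ecm1 far above it.

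Each called gene was then sorted by the group mean that makes its interaction. A group was taken to make the term alone where its mean stood apart from the nearest of the other 3 means by more than the range of those 3. Because this sort reads the group means, the separation of that group is a description of the class and not a further finding. Day 2 knockouts stood above the other 3 groups in 204 genes, 33.17% of all called, and below them in 36. Day 11 knockouts stood above in 85 and below in 33, and day 11 controls stood above in 40 and below in 28. Day 2 controls made the term in the fewest genes, 9 above and 14 below. In the remaining genes no single group made the term, 84 with an interaction above 0 and 82 below. Serpinb1a and Spink2 lay just inside the limit, with distances of 1.0005 and 1.0047 times the range, and Etv3 and Gstm3 just outside it, with 0.996 and 0.9932. At the limit of the call itself, Ppbp and Tmem65 were just inside, with adjusted p of 0.0497 and 0.05, and Bloc1s3 and Nqo2 just outside, both with 0.0501.

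**Figure D2:**
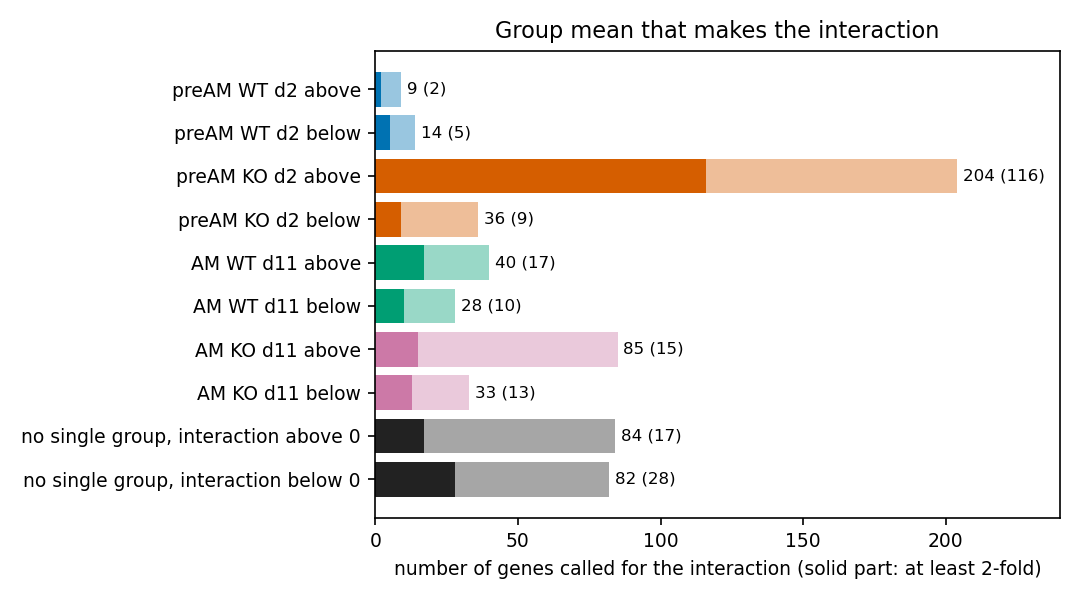
Number of genes called for the interaction in each of 10 classes, with the solid part of each bar and the number in parentheses giving those with an interaction of at least 2-fold. The longest bar, day 2 knockouts above, holds 204 genes and 116 of the 232 with an interaction of at least 2-fold.

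Each group had only 2 arrays, and single arrays weighed on these counts. A call lost without an array need not mean that this array carried it. The 4 groups share 1 estimate of the spread per gene, and the pair broken by leaving an array out no longer enters that estimate. Left out in turn, the day 2 control arrays left 197 (replicate 1) and 215 (replicate 2) interaction calls, the day 11 control arrays 254 and 248, the day 11 knockout arrays 414 and 405, and day 2 knockout replicate 1 left 439. Without day 2 knockout replicate 2 the count went up to 942. In all 8 such fits 161 genes were called, 33 above 0 and 128 below, and no called gene turned its sign in any of them. The class with day 2 knockouts above held between 88 genes (without day 2 control replicate 1) and 359 (without day 2 knockout replicate 2). The pools also differed in the sex of the mice. The female transcript Xist was low in day 2 control replicate 2 (3.38) and day 11 knockout replicate 1 (3.46), and the Y-linked genes Eif2s3y, Kdm5d and Uty were low in day 2 knockout replicate 1, with a mean of 4.37. In a fit added after seeing the data, with only the 5 arrays that held both signals, 222 genes were called, 39 above 0 and 183 below. That fit had 1 array in every group but day 11 controls, so its spread came from that 1 pair, and the lone arrays were assumed to vary like it. All p-values measure the spread between these pools, and the part of sex in the results was not tested.

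The genes behind the sort gates gave a check of the labels. Array values here and below are log2 signals, interactions are on the log2 scale with the standard error after the ± sign, folds are the ratio that a log2 difference gives, and adjusted p-values are from limma over all genes. Itgam, which encodes CD11b, read 7.87 and 7.79 in day 2 controls, 10.98 and 10.78 in day 2 knockouts, 6.22 and 6.32 in day 11 controls, and 10.86 and 10.66 in day 11 knockouts. The knockouts were above the controls at both ages without overlap, by 8.28-fold and 22.5-fold, and the interaction was 1.44 ± 0.14 (adjusted p = 0.00227). The day 11 gate took CD11b low controls and CD11b high knockouts, so neither the day 11 difference of Itgam nor its interaction is independent of the sort. Siglecf read 9.85 and 9.90 in day 2 controls, 7.13 and 7.46 in day 2 knockouts, 10.90 and 10.73 in day 11 controls, and 8.73 and 8.85 in day 11 knockouts, and was lower in knockouts at both ages. Its interaction of 0.56 ± 0.16 was not called (adjusted p = 0.133, 95% interval 0.18 to 0.93). For Itgax, which encodes CD11c, the interaction was -0.01 ± 0.09 (95% interval -0.21 to 0.19), for Ptprc (CD45) -0.27 ± 0.09 and for Adgre1 (F4/80) -0.24 ± 0.09, none of them called. None of the 7 pan-macrophage markers measured was under the median of all probe sets on every array, and Csf1r was the 1 called among them. Its interaction of -0.60 ± 0.12 (adjusted p = 0.0403) was called in only 1 of the 8 fits with an array left out, the one without day 11 knockout replicate 1 (adjusted p up to 0.139).

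Pparg itself read 10.89 and 11.01 in day 2 controls, 10.55 and 10.74 in day 2 knockouts, 11.18 and 11.13 in day 11 controls, and 11.32 and 11.36 in day 11 knockouts. It was called lower in knockouts at day 2, with a difference of -0.30 and no overlap (adjusted p = 0.0346), and not called at day 11 (0.18, adjusted p = 0.183), with an interaction of 0.49 ± 0.12 (adjusted p = 0.0729). Where the probes of this probe set lie relative to the deleted part of the gene is not stated, so this signal does not check the deletion. Its known targets Cidec and Fabp4 were lower in knockouts at both ages. Cidec, a lipid droplet protein, was 16.3-fold lower at day 2 and 16.2-fold lower at day 11, with an interaction of 0.01 ± 0.17 (95% interval -0.39 to 0.41). Fabp4, a fatty acid binding protein, was 7.53-fold and 9.08-fold lower, with an interaction of -0.27 ± 0.22 (95% interval -0.78 to 0.24).

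The genes in which day 2 knockouts stood above the other 3 groups carried the largest share of the interaction, with a median of -1.10 log2 units over the 204 genes. All 204 were called higher in knockouts at day 2, beside 8.86% of all genes, which follows largely from the sort. At day 11, 49 were called higher and 6 lower, beside 9.34% and 9.29%. These day 11 counts are not free of the sort either, which takes genes whose other group means lie close together. Ifitm6, an interferon-induced membrane protein gene found in monocytes, read 3.90 and 4.02 in day 2 controls, 7.62 and 7.53 in day 2 knockouts, 4.09 and 4.15 in day 11 controls, and 4.16 and 4.07 in day 11 knockouts. Both day 2 knockout arrays were far above the other 6, which lay together, and the interaction was -3.62 ± 0.10 (adjusted p = 1.52e-05). Clec4a1, a C-type lectin of monocytes, read 7.89 and 7.75 in day 2 controls, 10.81 and 10.27 in day 2 knockouts, 6.91 and 6.81 in day 11 controls, and 6.12 and 6.31 in day 11 knockouts. Here the knockouts were above the controls at day 2 and below them at day 11, both without overlap, with an interaction of -3.37 ± 0.23 (adjusted p = 0.000536). Cd209a, the DC-SIGN homologue of dendritic cells and monocyte-derived cells, read 5.26 and 5.57 in day 2 controls, 8.81 and 9.63 in day 2 knockouts, 5.14 and 5.43 in day 11 controls, and 5.28 and 5.72 in day 11 knockouts, with an interaction of -3.59 ± 0.38 (adjusted p = 0.00336). The day 11 groups overlapped for Cd209a, and its day 11 difference of 0.22 was not called (adjusted p = 0.675). Each of these 3 genes was called in all 8 fits with an array left out. Ifitm3, a restriction factor against viruses, had an interaction of -3.32 ± 0.62 (adjusted p = 0.032), but its day 2 knockout arrays read 11.56 and 10.12, and the call was lost without either day 2 control array, either day 11 control array or day 11 knockout replicate 2 (adjusted p up to 0.13).

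**Figure D3:**
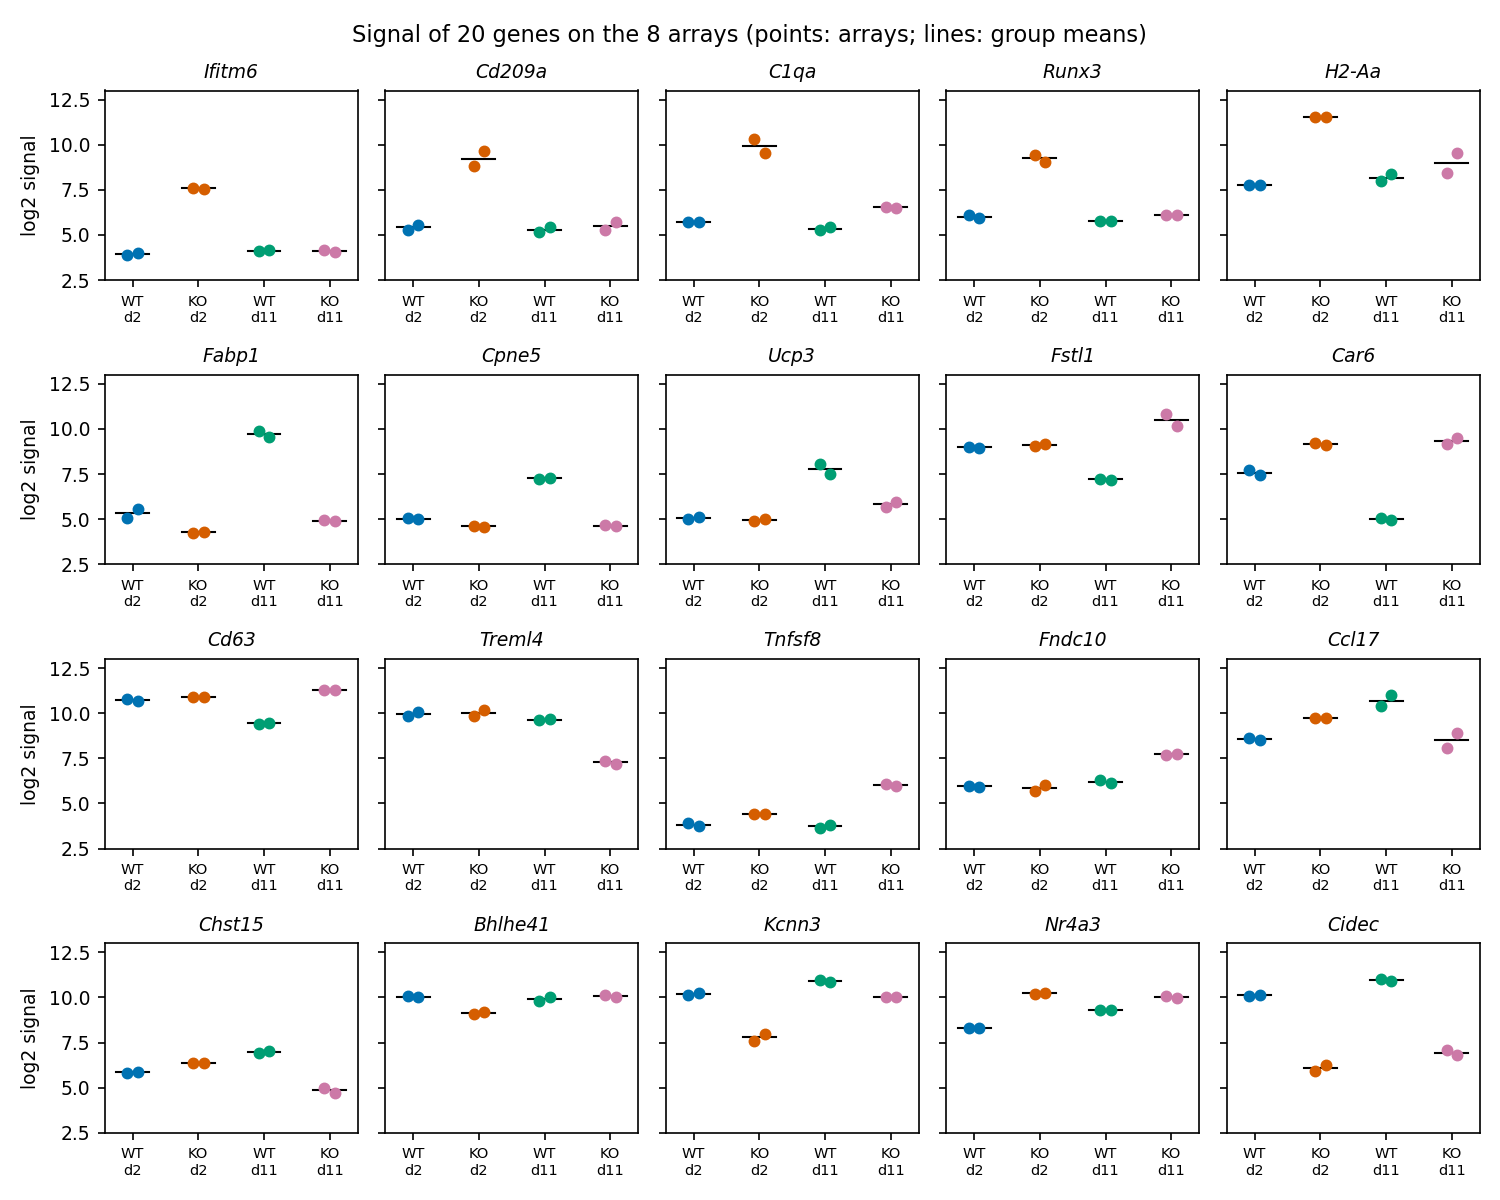
Log2 signal (vertical axis) of 20 genes on the 8 arrays, with points for arrays and lines for group means, in controls (WT) and knockouts (KO) at day 2 and day 11. The panels show day 2 knockouts apart in Ifitm6, Cd209a, C1qa and Runx3, day 11 controls apart in Fabp1, Cpne5, Fstl1 and Cd63, day 11 knockouts apart in Treml4, Tnfsf8 and Fndc10, and an equal genotype difference at both ages in Cidec.

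Genes of monocytes were found above all below 0. The lists were chosen with earlier results of these data known, so the share called in this or any other list is no independent test. Of 32 measured monocyte genes, 11 were called below 0 and 3 above 0, or 43.8% against 3.27% of all genes, with a median interaction of -0.65 beside 0.02 over all genes. The median genotype difference of the list was 1.31 at day 2 and 0.37 at day 11. Beside Ifitm6, Clec4a1 and Ifitm3, the members below 0 were Plac8, Sorl1, Cx3cr1, Mmp8, Clec4a3, Spn, Csf1r and Treml4. Of these 11, 6 were in the class with day 2 knockouts above and 3 had no single group. Day 11 controls stood above in 1 of them. Day 11 knockouts stood below in 1, Treml4, which was not high in day 2 knockouts. Itgam, S100a6 and Emilin2 went the other way. Itgam encodes CD11b, by which the day 11 cells of the genotypes were gated apart, so its call is not independent of the sort. S100a6, a calcium binding protein, was higher in knockouts at both ages, by 4.54-fold and 13.3-fold, with an interaction of 1.55 ± 0.21 (adjusted p = 0.00866) that was lost without day 2 control replicate 1 (adjusted p = 0.0562). The count below 0 fell to 7 without either day 2 control array, without day 11 control replicate 1 and without day 11 knockout replicate 2, and the count above 0 to 1 without day 2 control replicate 1. In pooled cells, fewer cells of a type and less RNA per cell cannot be told apart, here or for any list.

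MHC class II molecules present peptides to helper T cells, and their alpha and beta chains are switched on together by the coactivator Ciita acting on a shared promoter module that includes the Y box. Of 14 measured genes of this pathway, 9 (64.3%) were called, all below 0, with a median interaction of -1.15, and 7 of the 9 belonged to the class with day 2 knockouts above. H2-Ab1, the beta chain of I-A, read 7.65 and 7.51 in day 2 controls, 11.57 and 11.60 in day 2 knockouts, 7.83 and 8.24 in day 11 controls, and 8.11 and 9.38 in day 11 knockouts. Day 2 knockouts were 16.1-fold above their controls, while at day 11 the knockout arrays overlapped with the controls and lay apart from each other, with a difference of 0.71 that was not called (adjusted p = 0.227). Its interaction was -3.29 ± 0.49 (adjusted p = 0.0139). H2-Aa, the alpha chain, read 7.78 and 7.77 in day 2 controls, 11.52 and 11.55 in day 2 knockouts, 7.98 and 8.37 in day 11 controls, and 8.45 and 9.53 in day 11 knockouts, with an interaction of -2.95 ± 0.42 (adjusted p = 0.0115). Both calls were lost without either day 2 control array and without day 11 control replicate 2 (adjusted p up to 0.0744 for H2-Ab1 and 0.0653 for H2-Aa).

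Ciita, H2-Eb1, H2-Ob, Cd74, which encodes the invariant chain, and the costimulatory gene Cd83 also belonged to this class, and Cd80 had no single group. The ninth called member, H2-Oa, is singled out here after its values were seen because it was sorted apart from the other class II chains. It encodes the alpha chain of H2-O, a modulator of peptide loading, and read 6.47 and 6.61 in day 2 controls, 6.42 and 6.40 in day 2 knockouts, 6.57 and 6.78 in day 11 controls, and 5.45 and 5.28 in day 11 knockouts. The day 11 knockouts were below the other 6 arrays, and the interaction was -1.18 ± 0.14 (adjusted p = 0.00472). The number of class II genes below 0 was 3 without day 2 control replicate 1, 4 without day 2 control replicate 2 and 4 without day 11 control replicate 2, while the median interaction stayed between -1.10 and -1.19 over the 8 fits.

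The promoters of 3 called class II genes are shown because these genes share a promoter motif and yet fell into different classes. They are the 250 bases before the start site from the RefSeq promoter table (GRCm38.p6), each 5′ to 3′ on the strand of its gene, with the Y box in capitals. H2-Aa lies on the minus strand at chr17:34287824-34288073, H2-Eb1 on the plus strand at chr17:34305617-34305866 and H2-Oa on the plus strand at chr17:34092129-34092378.

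H2-Aa: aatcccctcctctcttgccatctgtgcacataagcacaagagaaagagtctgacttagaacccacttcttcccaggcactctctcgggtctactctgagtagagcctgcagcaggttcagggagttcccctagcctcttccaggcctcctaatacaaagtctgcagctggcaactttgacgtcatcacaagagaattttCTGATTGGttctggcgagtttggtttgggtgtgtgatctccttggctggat

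H2-Eb1: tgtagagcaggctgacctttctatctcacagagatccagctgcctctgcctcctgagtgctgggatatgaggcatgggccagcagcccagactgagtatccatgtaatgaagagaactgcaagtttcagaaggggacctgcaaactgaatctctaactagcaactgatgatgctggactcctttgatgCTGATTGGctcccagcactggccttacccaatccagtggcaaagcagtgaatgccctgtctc

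H2-Oa: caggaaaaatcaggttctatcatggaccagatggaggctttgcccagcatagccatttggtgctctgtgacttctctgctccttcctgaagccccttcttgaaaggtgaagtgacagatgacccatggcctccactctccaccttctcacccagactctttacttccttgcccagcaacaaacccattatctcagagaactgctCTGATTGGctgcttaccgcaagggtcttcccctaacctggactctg

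The letters CTGATTGG were searched on both strands, and CCAATCAG is their reverse complement. They occurred in 1258 of 32851 promoter windows of this length, or 3.83%. Of the 9 called class II genes 5 had a window in the table, and 3 of these held the letters. H2-Oa carries the same 8 letters as H2-Aa and H2-Eb1, and a match describes the sequence and not the use of the site.

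Complement C1q, which tags apoptotic cells and immune complexes for uptake, is made by macrophages of many tissues. Its A chain gene C1qa read 5.70 and 5.71 in day 2 controls, 10.30 and 9.51 in day 2 knockouts, 5.27 and 5.44 in day 11 controls, and 6.55 and 6.50 in day 11 knockouts. The knockouts were higher at both ages without overlap, by 18.4-fold at day 2 and 2.25-fold at day 11, and the interaction was -3.03 ± 0.30 (adjusted p = 0.0027). C1qc went from 28.8-fold at day 2 to 4.01-fold at day 11, with an interaction of -2.84 ± 0.18 (adjusted p = 0.000438). C1qb was called in the same direction, and all 3 were called in each fit with an array left out. Of 25 complement and coagulation genes 5 (20%) were called, all below 0, the others being F5 and Cfp, and 3 were left without any 1 of the 4 control arrays, day 2 knockout replicate 1 or day 11 knockout replicate 2. Of 39 genes of resident and interstitial macrophages 8 were called below 0 and 3 above (28.2%). The 8 became 4 without day 2 control replicate 1, 5 without day 2 control replicate 2 or day 11 control replicate 2 and 12 without day 2 knockout replicate 2, and the 3 became 1 without either day 2 control array. Mgl2, a galactose-binding lectin of that list, had an interaction of -3.02 ± 0.42 (adjusted p = 0.0104), and its call was lost without either day 2 control array and without day 11 control replicate 2 (adjusted p up to 0.0597).

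Among 44 transcription factor genes of macrophages and dendritic cells, 9 were called below 0 and 1 above (22.7%). The 9 became 4 without day 2 control replicate 1 and 5 without day 2 control replicate 2 or day 11 control replicate 2. Runx3, a Runt-domain factor, read 6.08 and 5.95 in day 2 controls, 9.44 and 9.07 in day 2 knockouts, 5.76 and 5.79 in day 11 controls, and 6.09 and 6.11 in day 11 knockouts. Day 2 knockouts were 9.43-fold above controls, the day 11 difference of 0.32 was not called (adjusted p = 0.1), and the interaction was -2.91 ± 0.16 (adjusted p = 0.000245). Irf4, a factor of dendritic cells and alternatively activated macrophages, was higher in knockouts at both ages, by 16.4-fold and 3.82-fold. Its interaction of -2.11 ± 0.43 (adjusted p = 0.0428) kept its call in 1 of the 8 fits, the one without day 11 knockout replicate 2 (adjusted p up to 0.157). Smad3, which transmits TGF-beta signals, had an interaction of -1.30 ± 0.10 (adjusted p = 0.000798) from the list of 38 GM-CSF and TGF-beta genes, of which 5 were called below 0 and 1 above (15.8%) and between 2 and 4 below 0 with any single array left out.

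Markers of other cell types were examined beside these genes because the day 2 gates could admit them. Of 20 dendritic cell markers 10 were called below 0 and 1 above (55%), with a median interaction of -1.05, and the count below 0 was 6 without either day 2 control array. The summed linear signal of the 20 ran from 4169 to 4207 in day 2 controls, 7821 to 7833 in day 2 knockouts, 4769 to 5498 in day 11 controls and 5905 to 7167 in day 11 knockouts. Cd24a, the 1 marker called above 0, made a large part of this sum, and without it the others summed to 1958 to 1996, 4630 to 4896, 3370 to 4040 and 2843 to 3372 in the same order. Zbtb46, Xcr1, Itgae and Siglech of this list stayed under the median of all probe sets (5.35) on every array. Of 19 neutrophil markers 8 were called below 0 and 1 above (47.4%), with 5 below 0 without either day 2 control array or without day 11 control replicate 1. Their summed signal ran from 1473 to 1524 in day 2 controls, 3713 to 3906 in day 2 knockouts, 1633 to 1729 in day 11 controls and 3155 to 3310 in day 11 knockouts. Without Mmp8 the others summed to 1396 to 1449, 1942 to 2458, 1433 to 1462 and 975 to 1161. Elane, Mpo, Prtn3, Camp, Ltf, Padi4 and Stfa3 stayed under that median on every array. In day 2 knockouts Ngp (5.99 and 6.29), S100a9 (6.34 and 6.10), Stfa1 (8.24 and 7.46) and Lcn2 (8.78 and 7.76) read above it. Cxcr1, the 1 marker called above 0, went the other way, from 8.76 and 8.63 in day 2 controls to 5.61 and 6.14 in day 2 knockouts. Cxcr2 (6.73 and 6.99 in day 2 controls, 6.05 and 6.11 in day 2 knockouts) and Wfdc21 (7.02 and 6.92, then 6.625 and 6.625) were also lower there. At day 2, 11 of the 19 were called higher in knockouts and 3 lower, beside 8.86% and 11.2% of all genes. Retnlg, a resistin-like gene of neutrophils, had an interaction of -2.69 ± 0.16 (adjusted p = 0.00033), and the collagenase Mmp8, singled out after its values were seen, was high in knockouts at both ages, at 10.50 and 10.79 on day 2 and 11.07 and 11.09 on day 11. Ltf was nonetheless among the 8 called. The part of such cells in the interaction was not tested.

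Other members of this class came from smaller lists. Mmp9, a gelatinase, read 4.66 and 4.75 in day 2 controls, 6.80 and 6.35 in day 2 knockouts, 4.76 and 4.72 in day 11 controls, and 4.86 and 4.80 in day 11 knockouts, with an interaction of -1.77 ± 0.18 (adjusted p = 0.00333). The day 2 knockouts were the high pair, and the other 6 arrays lay close together. Pecam1, an adhesion molecule of endothelium and leukocytes, had an interaction of -1.82 ± 0.14 (adjusted p = 0.000841). Of 22 endothelium markers, Cdh5, Pecam1 and Eng were called below 0 and Vwf above (18.2%, beside 3.27% of all genes). Tek, Esam, Sox17, Nos3, Robo4 and Tmem100 stayed under the median of all probe sets on every array. The count below 0 was 1 without any 1 of the 4 control arrays or day 2 knockout replicate 1. Eng, a TGF-beta coreceptor, had no single group and an interaction of -0.996 ± 0.20 (adjusted p = 0.0391), lost without any 1 of the 4 control arrays or day 2 knockout replicate 1 (adjusted p up to 0.147). Itgb7, an integrin chain, had -1.63 ± 0.25 (adjusted p = 0.0146), lost without any 1 of the 4 control arrays (adjusted p up to 0.0769). Ppbp, a platelet chemokine, and Slc16a3, a lactate transporter, had -1.26 ± 0.27 and -0.66 ± 0.13, and each was called in only 1 of the 8 fits, the one without day 2 knockout replicate 2 (adjusted p up to 0.187 and 0.143).

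In 36 genes the day 2 knockouts stood below the other groups. All 36 were called lower in knockouts at day 2, beside 11.2% of all genes, which follows largely from the sort. At day 11, 8 were called lower and 1, Slc39a10, higher, beside 9.29% and 9.34%. The sort also bears on these day 11 counts, since it takes genes whose other group means lie close together. Bhlhe41, a repressor that takes part in alveolar macrophage self-renewal, read 10.07 and 9.998 in day 2 controls, 9.06 and 9.18 in day 2 knockouts, 9.78 and 9.99 in day 11 controls, and 10.13 and 10.04 in day 11 knockouts. Day 2 knockouts were 1.89-fold below controls, the day 11 groups differed by 0.20 without a call (adjusted p = 0.19), and the interaction was 1.11 ± 0.12 (adjusted p = 0.00425). Kcnn3, a calcium-activated potassium channel, read 10.14 and 10.23 in day 2 controls, 7.60 and 7.98 in day 2 knockouts, 10.94 and 10.88 in day 11 controls, and 10.03 and 10.02 in day 11 knockouts. It was lower in knockouts at both ages, 5.26-fold at day 2 and 1.85-fold at day 11, with an interaction of 1.51 ± 0.16 (adjusted p = 0.00361). Phlda3, a target of p53 that restrains Akt, was 6.83-fold and 1.85-fold lower, and its interaction of 1.89 ± 0.27 (adjusted p = 0.0111) was lost without either day 2 control array or day 11 control replicate 1 (adjusted p up to 0.068). Less firmly held were Cxcr1, a chemokine receptor (1.28 ± 0.23), Cspg4, a proteoglycan (1.51 ± 0.29), and Serpinb1a, an inhibitor of neutrophil proteases (1.17 ± 0.25), which lost their calls in 5, 6 and 6 of the 8 fits. Any control array left out ended all 3, with adjusted p up to 0.121, 0.145 and 0.17, as did day 11 knockout replicate 2, and for Cspg4 also day 11 knockout replicate 1 and for Serpinb1a day 2 knockout replicate 1.

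In 40 genes the day 11 controls stood above the rest. Of these, 39 were called higher at day 11 than day 2 in controls, beside 2.81% of all genes, and 5 in knockouts, beside 8.81%. Both counts follow largely from the sort, which takes genes whose other group means, both knockout groups among them, lie close together. Fabp1, a fatty acid binding protein that serves lipid uptake and oxidation, read 5.07 and 5.56 in day 2 controls, 4.26 and 4.27 in day 2 knockouts, 9.89 and 9.54 in day 11 controls, and 4.94 and 4.90 in day 11 knockouts. The day 11 controls were far above every other array, the knockouts were lower at both ages, 2.07-fold at day 2 and 27.8-fold at day 11, and the interaction was -3.75 ± 0.23 (adjusted p = 0.000399), a change of 13.4-fold in the genotype ratio. Its promoter is shown because PPAR and RXR are known to bind a direct repeat with 1 base between its arms (DR1) and Fabp1 had the largest absolute interaction of the 77 named genes that were called. The 250 bases before the start site (RefSeq, GRCm38.p6, chr6:71199629-71199878, plus strand) hold such a repeat, in capitals.

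Fabp1: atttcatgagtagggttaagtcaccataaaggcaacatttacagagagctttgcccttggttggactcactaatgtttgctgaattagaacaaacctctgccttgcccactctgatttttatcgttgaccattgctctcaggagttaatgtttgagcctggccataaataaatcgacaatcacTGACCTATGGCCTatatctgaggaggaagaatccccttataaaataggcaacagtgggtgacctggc

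The repeat, DR1, was searched on both strands, with a free base between the arms and at 1 place in each arm, and was found in 111 of 32851 windows (0.338%). Of the 29 genes of this class with a window, Fabp1 was the 1 that held it, and of 27 PPAR target and lipid droplet genes with a window none did, which says only that these letters are not in those windows.

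Cpne5, a calcium-dependent membrane binding protein, read 5.06 and 5.00 in day 2 controls, 4.61 and 4.57 in day 2 knockouts, 7.25 and 7.28 in day 11 controls, and 4.65 and 4.59 in day 11 knockouts. Day 11 controls stood above, the knockouts stayed level from day 2 to day 11, and the interaction was -2.20 ± 0.09 (adjusted p = 7.77e-05). Ucp3, a mitochondrial uncoupling protein and PPAR target, read 4.99 and 5.09 in day 2 controls, 4.87 and 5.02 in day 2 knockouts, 8.06 and 7.50 in day 11 controls, and 5.68 and 5.97 in day 11 knockouts. No genotype difference was called at day 2 (-0.10, adjusted p = 0.772), the knockouts were 3.87-fold lower at day 11, and the interaction of -1.86 ± 0.25 (adjusted p = 0.00903) was lost without day 2 control replicate 1 (adjusted p = 0.0585). Wfdc10, a whey acidic protein family gene, was 3.2-fold lower at day 2 and 11.2-fold lower at day 11, with an interaction of -1.81 ± 0.20 (adjusted p = 0.0041). Epcam, an adhesion molecule that alveolar macrophages share with epithelium, had -1.07 ± 0.11 (adjusted p = 0.00283). Gpd1, which makes the glycerol backbone of triglycerides, had -0.98 ± 0.13 (adjusted p = 0.00823) and was lost without day 2 control replicate 2 (adjusted p = 0.0504).

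The reverse pattern, with day 11 controls below the rest, was seen in 28 genes. All 28 were called lower at day 11 than day 2 in controls, beside 2.49% of all genes. All were also called higher in knockouts than controls at day 11, beside 9.34%. Both counts follow largely from the sort. In knockouts 6 were called lower at day 11 than day 2, beside 6.71%. The sort also bears on this count, since it takes genes whose other group means lie close together. Fstl1, a secreted glycoprotein, read 9.02 and 8.95 in day 2 controls, 9.07 and 9.19 in day 2 knockouts, 7.22 and 7.18 in day 11 controls, and 10.83 and 10.16 in day 11 knockouts. The genotypes did not overlap at day 11, where the knockouts were 9.83-fold above, and differed by 0.15 at day 2 (adjusted p = 0.648), with an interaction of 3.15 ± 0.26 (adjusted p = 0.00115). Car6, a secreted carbonic anhydrase, read 7.72 and 7.45 in day 2 controls, 9.24 and 9.11 in day 2 knockouts, 5.06 and 4.97 in day 11 controls, and 9.14 and 9.48 in day 11 knockouts. It was higher in knockouts at both ages, 3.03-fold and then 19.6-fold, with an interaction of 2.69 ± 0.18 (adjusted p = 0.000536). Cd63, a tetraspanin of late endosomes, read 10.77 and 10.69 in day 2 controls, 10.91 and 10.91 in day 2 knockouts, 9.39 and 9.48 in day 11 controls, and 11.27 and 11.30 in day 11 knockouts. The day 11 controls were the low pair, and the interaction was 1.67 ± 0.09 (adjusted p = 0.000198). Fabp7, a brain-type fatty acid binding protein, had an interaction of 2.08 ± 0.25 (adjusted p = 0.00573) in the direction opposite to Fabp1. Gpx3, a secreted glutathione peroxidase, had 1.25 ± 0.16 (adjusted p = 0.00823), lost without day 2 control replicate 2 (adjusted p = 0.0506), and Fcna, a ficolin, had 0.96 ± 0.14 (adjusted p = 0.0139), lost without either day 2 control array (adjusted p up to 0.0733). The calls of Cd300a, an inhibitory receptor (1.03 ± 0.18), and Cd24a (0.79 ± 0.14) were lost without any 1 of the 4 control arrays and in 1 fit more, without day 11 knockout replicate 1 for Cd300a and day 2 knockout replicate 1 for Cd24a (adjusted p up to 0.11 and 0.124). Fam20c, a secretory pathway kinase (1.71 ± 0.32), was called in only 1 of the 8 fits, the one without day 11 control replicate 2 (adjusted p up to 0.136).

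Day 11 knockouts stood above the rest in 85 genes. All 85 were called higher at day 11 than day 2 in knockouts, beside 8.81% of all genes, and 6 in controls, beside 2.81%. Both counts follow largely from the sort, which takes genes whose other group means, both control groups among them, lie close together. Tnfsf8, the ligand of CD30, read 3.90 and 3.74 in day 2 controls, 4.41 and 4.43 in day 2 knockouts, 3.66 and 3.79 in day 11 controls, and 6.07 and 5.96 in day 11 knockouts. The knockouts were 1.52-fold above controls at day 2 and 4.91-fold above at day 11, with an interaction of 1.70 ± 0.12 (adjusted p = 0.000547). Fndc10, a membrane protein gene with a fibronectin type III domain, read 5.98 and 5.90 in day 2 controls, 5.71 and 6.04 in day 2 knockouts, 6.29 and 6.13 in day 11 controls, and 7.70 and 7.75 in day 11 knockouts. The genotypes overlapped at day 2 and were 2.86-fold apart at day 11, with an interaction of 1.58 ± 0.16 (adjusted p = 0.0027). Ephx1, the microsomal epoxide hydrolase, had 1.67 ± 0.25 (adjusted p = 0.0147) and was lost without either day 2 control array (adjusted p up to 0.0755). Mkx, a homeobox gene, had 1.81 ± 0.30 (adjusted p = 0.0231), lost without any 1 of the 4 control arrays or day 2 knockout replicate 1 (adjusted p up to 0.105). Vwf, a clotting factor carrier of endothelium and platelets, had 0.99 ± 0.14 (adjusted p = 0.0105), lost without either day 2 control array or day 11 control replicate 1 (adjusted p up to 0.0597).

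In 33 genes the day 11 knockouts stood below the other groups. Treml4, a receptor of the TREM family found on some monocytes and macrophages, read 9.86 and 10.09 in day 2 controls, 9.84 and 10.20 in day 2 knockouts, 9.64 and 9.65 in day 11 controls, and 7.37 and 7.19 in day 11 knockouts. The day 2 groups overlapped, with a difference of 0.04 (adjusted p = 0.865), whereas day 11 knockouts were 5.16-fold below their controls, and the interaction was -2.41 ± 0.18 (adjusted p = 0.000829). Lbr, the lamin B receptor of the nuclear envelope, read 7.24 and 7.55 in day 2 controls, 7.54 and 7.33 in day 2 knockouts, 7.63 and 7.13 in day 11 controls, and 5.95 and 5.76 in day 11 knockouts, with an interaction of -1.56 ± 0.25 (adjusted p = 0.017) that was lost without day 2 control replicate 1 or day 11 knockout replicate 2 (adjusted p up to 0.0842). Grap2, an adaptor protein, had -1.58 ± 0.24 (adjusted p = 0.0145), lost without any 1 of the 4 control arrays (adjusted p up to 0.0755). Fcgr4, an activating receptor for IgG, had -2.12 ± 0.44 (adjusted p = 0.0474), lost without any 1 of the 4 control arrays or day 2 knockout replicate 1 (adjusted p up to 0.164).

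Day 2 controls made the term in 23 genes. Nr4a3, an orphan nuclear receptor of the immediate early genes, read 8.29 and 8.31 in day 2 controls, 10.18 and 10.26 in day 2 knockouts, 9.31 and 9.30 in day 11 controls, and 10.09 and 9.96 in day 11 knockouts. The knockouts were above the controls at both ages, 3.78-fold and then 1.64-fold, as the controls came up by day 11, and the interaction was -1.20 ± 0.10 (adjusted p = 0.00115). Hivep2, a zinc finger factor, and Slc9a9, an endosomal sodium and proton exchanger, were likewise lowest in day 2 controls, with -1.48 ± 0.16 (adjusted p = 0.0042) and -1.43 ± 0.15 (adjusted p = 0.00356). Slc16a14, a transporter of the monocarboxylate family, had -1.42 ± 0.19 (adjusted p = 0.00976) and was lost without day 2 control replicate 2 or day 11 control replicate 1 (adjusted p up to 0.0585). Of 37 immediate early genes that tissue dissociation can induce, 7 were called, all below 0 (18.9%), among them Nr4a2 with -0.94 ± 0.10 (adjusted p = 0.00367), which had no single group. The 7 became 2 without day 2 control replicate 1 or day 11 control replicate 2, 3 without day 11 control replicate 1 or day 11 knockout replicate 2 and 4 without day 2 control replicate 2. In the opposite sense Egln3, an oxygen-sensing hydroxylase, read 6.64 and 6.92 in day 2 controls, 5.17 and 4.74 in day 2 knockouts, 5.39 and 5.37 in day 11 controls, and 4.76 and 4.62 in day 11 knockouts, highest in day 2 controls. Its interaction of 1.13 ± 0.21 (adjusted p = 0.0305) and those of Slc27a4, a fatty acid transporter (0.63 ± 0.11), and Aqp11, an aquaporin (0.63 ± 0.11), held in 2, 2 and 1 of the 8 fits. Each was lost without any 1 of the 4 control arrays and without day 11 knockout replicate 2, with adjusted p up to 0.115, 0.114 and 0.105, Egln3 and Aqp11 also without day 11 knockout replicate 1, and Slc27a4 and Aqp11 also without day 2 knockout replicate 1. Snai3, a zinc finger repressor, had 0.83 ± 0.13 (adjusted p = 0.0147), lost without either day 2 control array or day 11 control replicate 1 (adjusted p up to 0.0795).

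Among genes with no single group, several crossed over, with knockouts above controls at day 2 and below them at day 11. Ccl17, a chemokine that attracts T cells through CCR4, read 8.64 and 8.53 in day 2 controls, 9.75 and 9.73 in day 2 knockouts, 10.41 and 10.98 in day 11 controls, and 8.09 and 8.92 in day 11 knockouts. Controls rose with age while knockouts fell, so that a 2.23-fold excess in knockouts at day 2 became a 4.57-fold deficit at day 11, and the interaction was -3.35 ± 0.37 (adjusted p = 0.00418). Chst15, a chondroitin sulfotransferase, read 5.81 and 5.89 in day 2 controls, 6.36 and 6.37 in day 2 knockouts, 6.90 and 7.05 in day 11 controls, and 4.99 and 4.72 in day 11 knockouts, with an interaction of -2.63 ± 0.14 (adjusted p = 0.000178). Its groups did not overlap at either age and changed order. Cd300e, an activating receptor of monocytes, and Csf3r, the receptor for G-CSF, crossed over too, with -2.79 ± 0.24 (adjusted p = 0.00127) and -2.56 ± 0.29 (adjusted p = 0.00443). All 4 were called in each of the 8 fits with an array left out. The chemokine Ccl22, which shares the receptor of Ccl17, is among the 33 genes of this order, as are Clec4a1 and Clec4a3. Ccl2, a chemokine for monocytes, did not cross over. It was 13.9-fold higher in knockouts at day 2 and 3.78-fold higher at day 11, and its interaction of -1.88 ± 0.32 (adjusted p = 0.0233) was lost in 6 of 8 fits, all but those without 1 of the day 2 knockout arrays (adjusted p up to 0.108). Of 48 inflammatory cytokine and chemokine genes 5 were called, all below 0 (10.4%), and this count was 14 without day 2 knockout replicate 2 and 2 without day 11 knockout replicate 2 or any 1 of the 4 control arrays.

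Prickle2, a planar polarity gene, crossed over in the reverse order. It read 6.32 and 6.45 in day 2 controls, 5.50 and 5.83 in day 2 knockouts, 6.74 and 6.55 in day 11 controls, and 7.60 and 7.49 in day 11 knockouts, below controls at day 2 and above them at day 11 without overlap, with an interaction of 1.62 ± 0.17 (adjusted p = 0.00326). More genes with an interaction above 0 widened a difference that was already there. Ecm1, a secreted matrix protein, read 8.37 and 8.28 in day 2 controls, 10.33 and 10.34 in day 2 knockouts, 6.35 and 6.21 in day 11 controls, and 10.88 and 10.65 in day 11 knockouts. The knockouts were 4.03-fold above controls at day 2 and 22.4-fold above at day 11, with an interaction of 2.47 ± 0.13 (adjusted p = 0.000178). Elovl7, a fatty acid elongase, went from 4.22-fold to 15.6-fold, with 1.88 ± 0.15 (adjusted p = 0.00115). Syngr1, a synaptic vesicle protein gene, had 1.56 ± 0.27 (adjusted p = 0.0243), lost without any 1 of the 4 control arrays or day 2 knockout replicate 1 (adjusted p up to 0.109). Msr1, a scavenger receptor for modified lipoproteins (0.77 ± 0.12), and Hopx, a homeodomain cofactor (0.79 ± 0.12), lost their calls without either day 2 control array, day 11 control replicate 2 or day 11 knockout replicate 2, and Msr1 also without day 11 knockout replicate 1 (adjusted p up to 0.0951 and 0.0902). Of 46 phagocytic and scavenger receptor genes 8 were called below 0 and 3 above (23.9%). Without any 1 of the 4 control arrays 3 were called below 0, and without a control or day 11 knockout array 0 or 1 above. Cd79b, a subunit of the B cell receptor and the 1 called of 13 B cell markers, had -0.80 ± 0.11 (adjusted p = 0.00908), with lower signals at day 11 in both genotypes.

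Among genes that define alveolar macrophages, those called lower in knockouts outnumbered those called higher at both ages. Of 34 measured, 22 were called lower and 3 higher at day 2, beside 11.2% and 8.86% of all genes, and 19 lower and 4 higher at day 11, beside 9.29% and 9.34%, with median differences of -0.62 and -0.41, while 3 were called for the interaction above 0 and 4 below (20.6%), with a median of 0.10. At an unadjusted p under 0.05 in limma 17 of the 34 passed, beside 3192 of all 18782 genes. Those below 0 were Fabp1, Epcam, Gpd1 and Krt79, a keratin, which was 19-fold lower at day 2 and 40.3-fold lower at day 11. The interaction of Krt79 was -1.08 ± 0.18 (adjusted p = 0.0238) and was lost without any 1 of the 4 control arrays (adjusted p up to 0.105). Those above 0 were Bhlhe41, Serpinb1a and Cd63, and without day 2 knockout replicate 2 the number above 0 was 8, while without day 2 control replicate 2 the number below 0 was 2. Of 33 PPAR target and lipid droplet genes 20 were called lower and 4 higher at day 2, and 15 lower and 3 higher at day 11. For the interaction 13 passed an unadjusted p under 0.05, and 2 (6.06%), Ucp3 and Gpd1, were called for the interaction, both below 0. That number became 1 without either day 2 control array, and without day 2 knockout replicate 2 the list had 5 calls above 0. Of 21 fatty acid oxidation genes Acadl, a long-chain dehydrogenase, had 0.68 ± 0.09 (adjusted p = 0.0072), its deficit shrinking from 1.96-fold to 1.23-fold. Hsd17b4, the peroxisomal bifunctional enzyme, had -0.51 ± 0.09 (adjusted p = 0.0323), and no fit with an array left out kept that call (adjusted p up to 0.126). Of 17 cholesterol efflux genes Cyp27a1, a sterol hydroxylase, was the 1 called, with -0.94 ± 0.15 (adjusted p = 0.0163), lost without any 1 of the 4 control arrays or day 11 knockout replicate 1 (adjusted p up to 0.08).

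**Figure D4:**
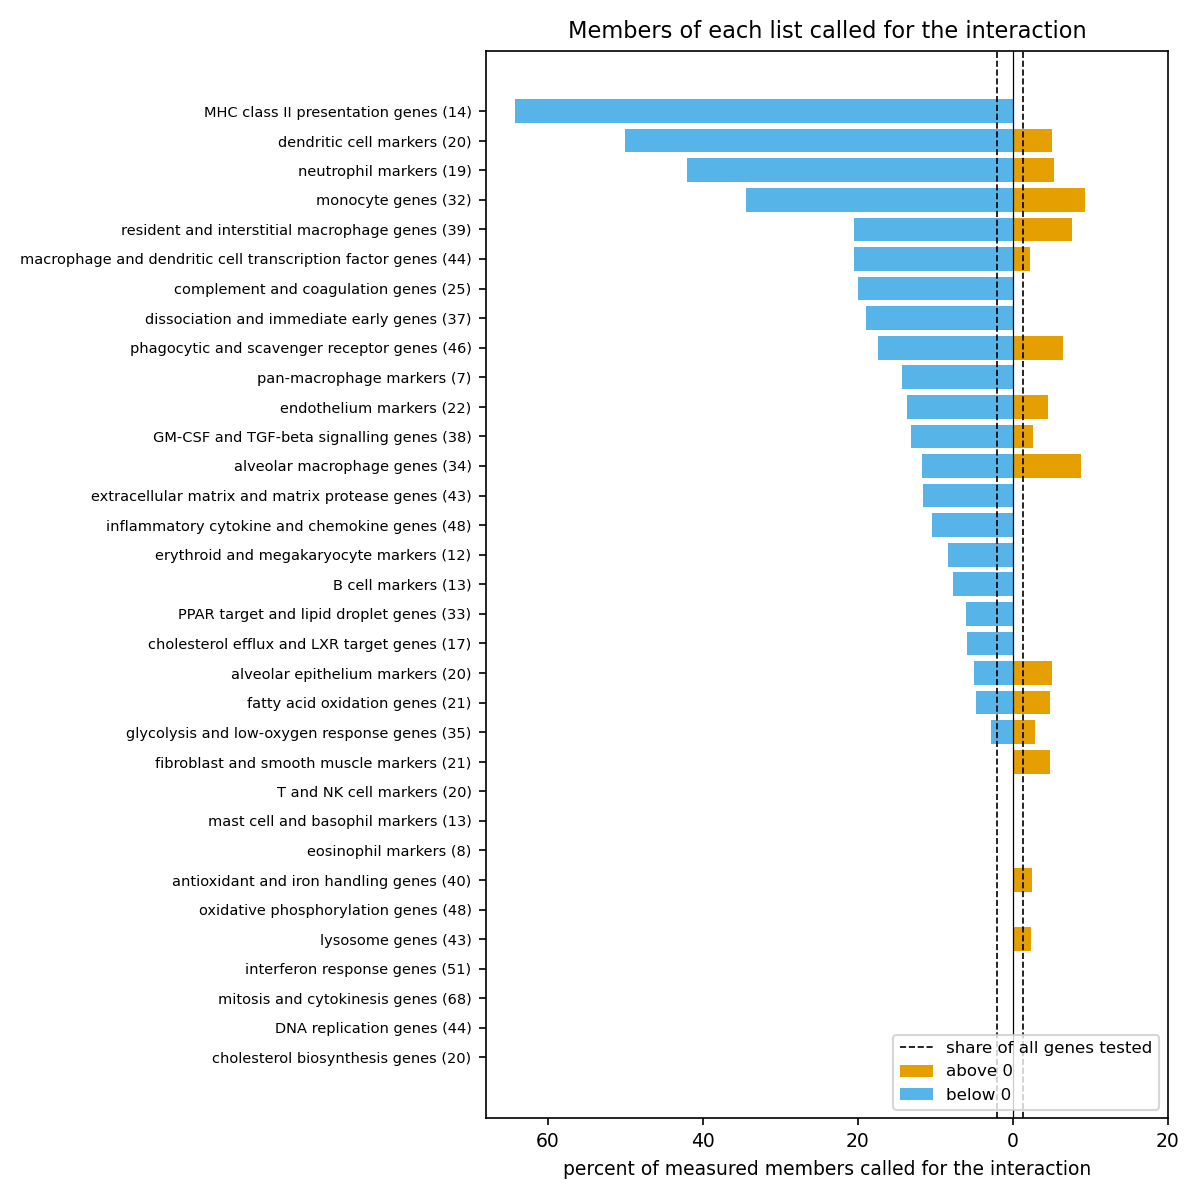
Percent of the measured members of each of 33 lists (number in parentheses) called for the interaction, above 0 to the right and below 0 to the left, with dashed lines at the share of all genes tested, 1.29% above 0 and 1.99% below. The MHC class II list reaches 64.3% to the left, and 8 lists, DNA replication and interferon response among them, have no bar.

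Proliferation genes had a genotype difference at both ages and no interaction call. Of 44 DNA replication genes 42 were called lower in knockouts at day 2, beside 11.2% of all genes, and 42 at day 11, beside 9.29%, with median differences of -0.76 and -0.85, and none was called for the interaction, whose median was -0.15. Of 68 genes of mitosis and cytokinesis 64 were lower at day 2 and 65 at day 11, with medians of -0.81 and -1.06, and none was called for the interaction, whose median was -0.28. Lower at day 11 than day 2 were 9 of the first list in controls and 21 in knockouts. For the second list these were 3 and 43, beside 2.49% and 6.71% of all genes. At an unadjusted p under 0.05 in limma, 9 of the first list and 17 of the second passed, beside 3192 of all 18782 genes, and up to 2 and 4 were called in a fit with an array left out, both without day 11 knockout replicate 1. Cholesterol biosynthesis gave 0 interaction calls of 20, with a median of -0.04, and oxidative phosphorylation 0 of 48, with a median of 0.05, with 2 and 5 at an unadjusted p under 0.05. The largest genotype differences that were called at both ages without an interaction call were C3ar1, the receptor for complement C3a, Kcnn4 and Papss2 among genes higher in knockouts, and Krt19, Tc2n and Cidec among those lower. C3ar1 was 20.4-fold higher at day 2 and 31.1-fold at day 11, with an interaction of 0.61 ± 0.20 (95% interval 0.14 to 1.07). Kcnn4, a potassium channel, was 14.3-fold and 15-fold higher, with 0.07 ± 0.23 (95% interval -0.45 to 0.60). For Krt19 the estimate of 1.15 ± 0.44 had a wide interval of 0.12 to 2.17, its day 2 knockout arrays reading 5.20 and 6.41.

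Interferon response genes had a large median interaction and no call. The median of 51 genes was -1.14, 9 passed an unadjusted p under 0.05 in limma, and their median signal was 6.36 and 5.86 in day 2 controls, 9.09 and 6.84 in day 2 knockouts, 5.93 and 5.81 in day 11 controls and 6.57 and 6.06 in day 11 knockouts. Day 2 knockout replicate 1 stood about 2 log2 units above its partner. Without that array the median interaction of the list was -0.17 and 2 genes were called. Without its partner, replicate 2, the median was -2.17 and 41 genes were called below 0. The 2 day 2 knockout pools differed by at least 2-fold in 142 genes, against 19 in day 2 controls, 2 in day 11 controls and 65 in day 11 knockouts.

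**Figure D5:**
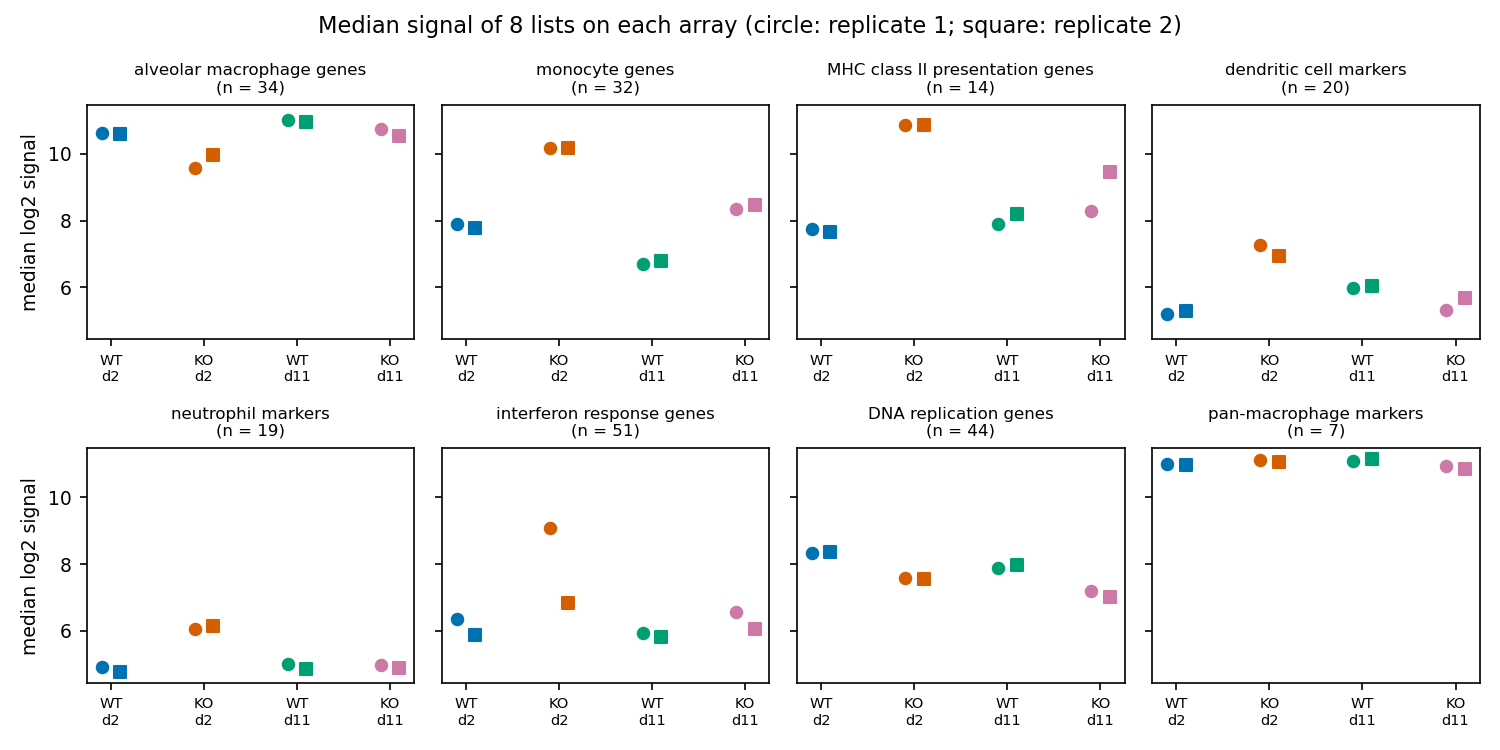
Median log2 signal (vertical axis) of the measured members of 8 lists on each array, with circles for replicate 1 and squares for replicate 2, in controls (WT) and knockouts (KO) at day 2 and day 11. Monocyte, MHC class II, dendritic cell and neutrophil lists are highest in both day 2 knockout arrays, the interferon list is highest in 1 of them (9.09 against 6.84), and pan-macrophage markers are level across the 8 arrays.

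The remaining lists were nearer the share of all genes (3.27%) or had few calls. Of 43 extracellular matrix genes 5 were called below 0 (11.6%). That count was 10 without day 2 knockout replicate 2, 2 without day 2 control replicate 1 or day 11 control replicate 1, 1 without day 2 control replicate 2 and 3 without day 11 control replicate 2 or day 11 knockout replicate 1. Lysosome genes gave 1 call of 43 (Cd63, 2.33%) and antioxidant and iron handling genes 1 of 40 (Gpx3, 2.5%). Glycolysis and low-oxygen response genes gave 2 of 35 (Egln3 and Slc16a3, 5.71%). Alveolar epithelium markers gave 2 calls of 20 (Epcam and Hopx, 10%). Fibroblast and smooth muscle markers gave 1 of 21 (Cspg4, 4.76%), and erythroid and megakaryocyte markers 1 of 12 (Ppbp, 8.33%). Eosinophil markers (8 measured), mast cell and basophil markers (13) and T and NK cell markers (20) gave none in limma, with 1, 4 and 3 at an unadjusted p under 0.05. Counted in each direction, the calls of the lists from lysosome to T and NK cell markers lay between 0 and 3 in the 8 fits with an array left out.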

How the data were processed

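RNA of sorted mouse lung macrophages was measured on 8 Affymetrix arrays, 2 for each of 4 groups. Per the submitters' processing notes, RMA was run in R 2.15.2 to make the log2 values the authors deposited, and its settings are not stated. All 8 columns hold nearly the same distribution (at any rank they differ by at most 0.026), so a shift of all genes together is not visible, and 2 arrays per group limit the precision. Nothing in the labels gives the pools of a group as separate litters or days, so p-values measure the spread between these pools only.

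Of 28874 probe sets, 21159 had 1 gene symbol in the platform annotation, 1881 several and 5834 none. The symbols of 21129 were checked by Entrez number and none changed. For each of 18782 genes the probe set of the highest mean was kept (1368 genes had several). Paralogs with near-identical probes, such as those of the Ifitm, Clec4a, Stfa and Ear families, may share signal. A model with 4 group means was fitted to all 18782 genes with limma 3.58.1 (R 4.3.3; lmFit, contrasts, eBayes), with 4 residual degrees of freedom per gene, and p-values were adjusted by Benjamini-Hochberg over all genes for each comparison. The differences between ages and genotypes share arrays with the interaction. Errors are standard errors. Tables and plots were made with Python 3.11.15, pandas 2.3.3 and matplotlib 3.10.9.

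A group made the interaction alone where its mean lay farther from the nearest other mean than the range of the other 3. The genes given with values were the 4 of the largest absolute interaction in each class, the 2 above 0 and the 2 below 0 among the called members of each list, the genes of the sort, Pparg with Fabp4 and Cidec, and the 3 higher and 3 lower genes of the largest difference called at both ages without an interaction call. Unnamed gene models, small RNA, olfactory, vomeronasal and antigen receptor genes were left out (18 called genes), and sex-linked genes served as a check of the pools. The members and lists were chosen with earlier results of these data known. In simulated data the noise was independent and normal, with 1 spread per gene in all groups. There 96 of 100 interactions of 1 log2 unit and 100 of 100 of 2 units were called. The unchanged genes among the 18782 gave 18 false calls. The real pools lay farther apart in some groups than in others, so these rates may not hold for them. Alternatives were a replicate block, a trended robust prior, the mean of all probe sets, no dim genes, centred arrays, array weights, a 2-fold limit, a stricter class limit, each array left out, and, chosen after seeing the data, only pools with both sexes. Promoters are from RefSeq (GRCm38.p6) by symbol.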

Additional observations from a re-analysis of the deposited data

Results flagged for a closer look

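For the 77 named genes below, the knockout minus control difference at day 11 differed from that at day 2 in the test of the interaction over the 8 arrays (limma, adjusted p under 0.05). The values are interactions on the log2 scale, and they restate the comparison of the report, gene by gene, because a difference between ages is the comparison itself.

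Where day 2 knockouts stood above the other groups, the interaction was Ifitm6 -3.62, Cd209a -3.59, Clec4a1 -3.37, Ifitm3 -3.32, C1qa -3.03, Mgl2 -3.02, H2-Ab1 -3.29, H2-Aa -2.95, C1qc -2.84, Smad3 -1.30, Runx3 -2.91 and Slc16a3 -0.66. In the same class, the interaction was Mmp9 -1.77, Itgb7 -1.63, Retnlg -2.69, Pecam1 -1.82 and Ppbp -1.26. Where day 2 knockouts stood below, the interaction was Phlda3 1.89, Kcnn3 1.51, Cspg4 1.51, Cxcr1 1.28, Serpinb1a 1.17 and Bhlhe41 1.11. Where day 11 controls stood above, the interaction was Fabp1 -3.75, Cpne5 -2.20, Ucp3 -1.86, Wfdc10 -1.81, Gpd1 -0.98 and Epcam -1.07. Where day 11 controls stood below, the interaction was Fstl1 3.15, Car6 2.69, Fabp7 2.08, Fam20c 1.71, Cd63 1.67, Fcna 0.96, Cd300a 1.03, Gpx3 1.25 and Cd24a 0.79. Where day 11 knockouts stood above, the interaction was Mkx 1.81, Tnfsf8 1.70, Ephx1 1.67, Fndc10 1.58 and Vwf 0.99. Where day 11 knockouts stood below, the interaction was Treml4 -2.41, Fcgr4 -2.12, Grap2 -1.58 and Lbr -1.56. Where day 2 controls stood above, the interaction was Egln3 1.13, Snai3 0.83, Slc27a4 0.63 and Aqp11 0.63. Where day 2 controls stood below, the interaction was Hivep2 -1.48, Slc9a9 -1.43, Slc16a14 -1.42 and Nr4a3 -1.20. With no single group and a value above 0, the interaction was Ecm1 2.47, Elovl7 1.88, Prickle2 1.62, Syngr1 1.56, Acadl 0.68, S100a6 1.55, Itgam 1.44, Msr1 0.77 and Hopx 0.79. With no single group and a value below 0, the interaction was Ccl17 -3.35, Cd300e -2.79, Chst15 -2.63, Csf3r -2.56, Krt79 -1.08, Hsd17b4 -0.51, Cyp27a1 -0.94, Ccl2 -1.88, Irf4 -2.11, Nr4a2 -0.94, Csf1r -0.60 and Cd79b -0.80. In the same class, the interaction was Eng -0.996.

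Groups of 2 arrays are too small to look for a single array far from the others.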

How the results depend on the processing

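The number of interaction calls depended most on single arrays: with 1 left out it lay between 197 and 942 around the reported 615, between 46 and 396 above 0 and between 147 and 546 below 0. Day 2 genotype calls lay between 2223 and 3605, day 11 genotype calls between 2059 and 3760, age calls in controls between 233 and 1292 and in knockouts between 1541 and 2985. Over the same fits the classes held between 1 and 9 genes (day 2 controls above), 5 and 19 (day 2 controls below), 88 and 359 (day 2 knockouts above), 4 and 104 (day 2 knockouts below), 13 and 34 (day 11 controls above), 8 and 23 (day 11 controls below), 20 and 136 (day 11 knockouts above), 8 and 39 (day 11 knockouts below), 12 and 124 (no single group, above 0) and 31 and 99 (no single group, below 0). The lone array of a group was then assumed to vary like the others.

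With an absolute difference of at least 1 log2 unit added to the call, 232 genes were left for the interaction (53 above 0, 179 below), 695 and 648 for genotype at day 2 and day 11, and 148 and 370 for age in controls and knockouts. By class, above and below, these were 2 and 5 for day 2 controls, 116 and 9 for day 2 knockouts, 17 and 10 for day 11 controls, 15 and 13 for day 11 knockouts and 17 and 28 for no single group. With only the mixed-sex pools, where each group but day 11 controls had 1 array and the spread came from that 1 pair, 222 were called (39 above 0, 183 below), 2044 for genotype at day 2, and 525 and 1090 for age in controls and knockouts. The classes that moved by over 1.5 times were day 2 controls above (5), day 2 knockouts above (119) and below (4), day 11 controls above (16) and below (9), day 11 knockouts above (12) and below (13), and no single group above 0 (9) and below 0 (25). That fit turned all 4 sex-linked genes, and it leaves out pools of 1 sex: Eif2s3y from 2.153 to -1.32 and Uty from 1.39 to -1.67, both called there, and Kdm5d from 1.14 to -1.03 and Xist from -6.397 to 0.97, not called in either. Array weights gave 1496 age calls in controls against 996, and the cause was not tested. A class limit of 2 times the range left 4 and 4 genes for day 2 controls above and below, 18 for day 2 knockouts below, 21 and 8 for day 11 controls, 53 and 19 for day 11 knockouts, and moved the remainder to no single group (159 and 187).

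Of the 77 named calls, 77 were kept with array weights and with centred arrays, 76 with the mean of all probe sets, 68 with the trended robust prior, 47 with mixed-sex pools, 40 to 73 with an array left out, and 70 of 70 still tested without dim genes. With the replicate number as a block, the interaction of genotype and age gave 558 calls, 197 genes called for the interaction, above 0, and 361 genes called for the interaction, below 0, and 74 named calls were kept. The numbers do not pair the samples: the deviations of same-numbered arrays correlated between -0.075 and 0.25 over the 6 pairs of groups.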

Other observations

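Of 8 eosinophil markers 7 stayed under the median of all probe sets on every array, and none was called for the interaction. The eighth was Siglecf, the marker of the macrophage sort, and without it the linear signals of the other 7 summed to 130 to 144 over the 8 arrays. Of 20 T and NK cell markers 16 stayed under that median. Il7r, singled out after its values were seen, read 8.43 and 7.89 in day 2 controls, 11.29 and 10.68 in day 2 knockouts, 6.22 and 6.92 in day 11 controls, and 10.35 and 9.71 in day 11 knockouts, and its interaction of 0.63 was not called in limma (adjusted p = 0.553). The sum of 22 endothelium markers ran from 5878 to 7347 over the 8 arrays and that of 7 pan-macrophage markers from 16603 to 18720. Car4, which is also on the alveolar macrophage list, made a large part of the endothelium sum. Without Car4 the others summed to 1839 to 1851 in day 2 controls and 2195 to 2249 in day 2 knockouts. At day 11 they summed to 2283 to 2318 in controls and 2347 to 2510 in knockouts. No test was run on these sums.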
